A study of Mus musculus with 6 samples.

Results

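The myeloid C-type lectin receptor genes examined here were the 8 genes Clec7a, Clec4n, Clec4d, Clec4e, Clec5a, Clec4a2, Clec12a and Clec10a, out of 21993 coding genes in the annotation. Every accessible region that overlapped the body of one of these genes or the 20 kb on either side was taken, which gave 47 of the 112852 regions in the series. A region was the union of overlapping ATAC-seq peaks from the 6 peak lists. ATAC-seq inserts sequencing adaptors into open DNA with the transposase Tn5, so that reads pile up where chromatin is accessible.

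C-type lectin receptors are membrane proteins that myeloid cells use to bind sugars and lipids on fungi, bacteria and dying cells. The activating members reach the kinase Syk through an immunoreceptor tyrosine-based activation motif (ITAM), which lies in the receptor tail or in an adaptor such as the Fc receptor gamma chain (Fcer1g) or DAP12 (Tyrobp), and Syk then signals through Card9, Bcl10 and Malt1. Inhibitory members carry an inhibitory motif (ITIM) that recruits the phosphatases SHP-1 (Ptpn6) and SHP-2 (Ptpn11). Most of these genes are known for expression in mature monocytes, macrophages, dendritic cells and neutrophils rather than in progenitors.

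The cells were murine leukemia stem cells (LSCs), labelled L-GMP, wild-type in genotype and of blood origin by their labels. According to the methods they were granulocyte-macrophage progenitor-like leukemia cells from mice transplanted with progenitors that carried retroviral MLL-AF9, a fusion oncogene that both groups therefore shared, and they were grown with 20% FBS and 10 ng/ml mouse IL3. There were 3 control and 3 MMF samples. MMF, mycophenolate mofetil, is the prodrug of mycophenolic acid, which inhibits inosine monophosphate dehydrogenase and thereby guanine nucleotide synthesis. Exposure was 24 h by the labels, while the study's texts differ on dose and duration, and the vehicle of these controls was not named, although compounds were in general dissolved in DMSO. The study describes its samples in general as biologically independent, without saying for these libraries whether they came from separate mice or cultures, so the p-values below measure only the spread between these samples. The comparison addressed whether blocking guanine nucleotide synthesis altered chromatin accessibility in LSCs.

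The lists held 58496 to 63911 peaks in the controls and 80893 to 86556 with MMF, and the peaks held a median of 14 to 19 reads at the summit. Across the 41182 regions with a peak in all 6 lists (shared regions), summit reads correlated at Spearman's rho 0.916 to 0.930 within groups and 0.845 to 0.853 between groups. Of 10 progenitor and L-GMP markers, 4 had a promoter peak in all 6 lists, among them Kit and Meis1, and Mpo and Prtn3 had none. None of 4 T cell markers or 4 B cell markers had a promoter peak in any list. Of 4 erythroid markers 3, and of 3 NK cell markers 2, had one in at least 1 list, and Klf1 in all 6.

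Of the 8 genes, 7 lie on chromosome 6 and Clec10a on chromosome 11. In GRCm38 coordinates Clec5a spans chr6:40574894-40585821 on the minus strand. The Clec4 cluster follows with Clec4a2 at chr6:123106428-123143999, Clec4n at chr6:123229843-123247021 and Clec4d at chr6:123262111-123275265, all on the plus strand, and Clec4e at chr6:123281789-123289870 on the minus strand. Clec12a lies at chr6:129342691-129365303 on the plus strand and Clec7a at chr6:129461591-129472779 on the minus strand. Clec10a spans chr11:70156197-70170834 on the plus strand. The windows of Clec4n, Clec4d and Clec4e overlapped, and 8 regions counted for more than 1 gene. At the summit, 25 regions were intergenic, 17 intronic and 5 exonic.

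Below is the genomic sequence around the summits that the results turn on, namely the 10 regions whose summit reads rose with MMF, which include the promoters of Clec4e, Clec4a2 and Clec10a, and the 3 regions found in all MMF lists and no control list. Each run is up to 200 bases centred on the summit, on the plus strand of GRCm38, and runs that reached an annotated untranslated region were shortened at it. Capitals mark matches on either strand to TTGCNNAA (the core of the C/EBP site), GAGGAAGT (PU.1), TGTGGTT (RUNX) or TGANTCA (AP-1).
Clec4a2 27.1 kb upstream, chr6:123095539-123095738: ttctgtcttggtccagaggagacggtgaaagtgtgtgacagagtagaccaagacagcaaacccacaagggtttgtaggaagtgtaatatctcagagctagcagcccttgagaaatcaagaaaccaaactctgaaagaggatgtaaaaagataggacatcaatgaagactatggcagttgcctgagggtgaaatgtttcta
Clec4a2 promoter, chr6:123123180-123123315: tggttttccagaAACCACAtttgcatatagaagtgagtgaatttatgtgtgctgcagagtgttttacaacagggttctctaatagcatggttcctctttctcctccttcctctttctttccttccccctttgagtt
Clec4n 2.14 kb upstream, chr6:123227602-123227801: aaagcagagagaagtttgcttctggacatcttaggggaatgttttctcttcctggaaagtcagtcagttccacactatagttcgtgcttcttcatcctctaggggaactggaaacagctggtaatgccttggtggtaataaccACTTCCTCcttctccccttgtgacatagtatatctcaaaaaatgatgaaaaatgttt
Clec4d 9.16 kb upstream, chr6:123252858-123253057: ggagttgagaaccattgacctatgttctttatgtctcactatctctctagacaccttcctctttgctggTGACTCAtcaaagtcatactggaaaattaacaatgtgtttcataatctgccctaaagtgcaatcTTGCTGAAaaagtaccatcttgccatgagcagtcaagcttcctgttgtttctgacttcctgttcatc
Clec4d 1.80 kb upstream, chr6:123260221-123260420: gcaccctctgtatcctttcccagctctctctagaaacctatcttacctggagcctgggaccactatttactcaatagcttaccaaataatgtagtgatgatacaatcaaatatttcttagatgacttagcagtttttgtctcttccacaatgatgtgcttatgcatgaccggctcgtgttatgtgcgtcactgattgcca
Clec4e promoter, chr6:123289871-123290053: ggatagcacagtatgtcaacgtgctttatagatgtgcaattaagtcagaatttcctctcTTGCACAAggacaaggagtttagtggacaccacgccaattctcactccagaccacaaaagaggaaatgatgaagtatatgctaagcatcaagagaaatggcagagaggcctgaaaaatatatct
Clec5a 2.75 kb upstream, chr6:40588453-40588652: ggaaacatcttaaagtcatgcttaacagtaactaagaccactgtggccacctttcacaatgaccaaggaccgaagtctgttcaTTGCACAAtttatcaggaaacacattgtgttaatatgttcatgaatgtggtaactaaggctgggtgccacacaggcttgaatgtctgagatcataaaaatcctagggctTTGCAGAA
Clec12a 15967 bp upstream, chr6:129333897-129334096: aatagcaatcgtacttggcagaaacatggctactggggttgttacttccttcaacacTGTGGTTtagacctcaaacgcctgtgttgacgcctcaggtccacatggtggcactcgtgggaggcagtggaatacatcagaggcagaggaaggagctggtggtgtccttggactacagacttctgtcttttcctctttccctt
Clec12a 5.42 kb upstream, chr6:129344444-129344643: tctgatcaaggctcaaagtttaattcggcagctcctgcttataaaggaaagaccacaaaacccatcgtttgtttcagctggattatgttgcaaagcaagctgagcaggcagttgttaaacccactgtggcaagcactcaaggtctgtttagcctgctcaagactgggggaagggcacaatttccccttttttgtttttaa
Clec12a 13.5 kb downstream of the start, chr6:129363386-129363585: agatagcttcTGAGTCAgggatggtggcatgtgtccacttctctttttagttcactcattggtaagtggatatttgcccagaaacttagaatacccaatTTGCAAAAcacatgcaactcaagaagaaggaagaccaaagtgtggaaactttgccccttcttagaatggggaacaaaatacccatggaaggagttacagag
Clec7a 1.20 kb downstream of the start, chr6:129471474-129471673: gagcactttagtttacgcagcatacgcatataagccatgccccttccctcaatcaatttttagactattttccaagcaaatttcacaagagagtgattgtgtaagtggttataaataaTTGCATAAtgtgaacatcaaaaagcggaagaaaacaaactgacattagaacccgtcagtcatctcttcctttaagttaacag
Clec7a 4.17 kb upstream, chr6:129476849-129477048: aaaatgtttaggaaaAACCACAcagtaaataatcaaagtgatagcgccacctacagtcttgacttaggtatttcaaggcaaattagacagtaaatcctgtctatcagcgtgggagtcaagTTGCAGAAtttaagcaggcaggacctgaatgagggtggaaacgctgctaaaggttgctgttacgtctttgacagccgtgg
Clec10a promoter, chr11:70166469-70166622: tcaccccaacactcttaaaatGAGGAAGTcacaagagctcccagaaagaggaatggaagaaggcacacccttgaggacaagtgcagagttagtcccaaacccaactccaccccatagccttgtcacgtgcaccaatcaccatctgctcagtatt

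The C/EBP letters occurred in 11 of the 47 lectin regions (23.4%) and in 15% of all 112852 regions over the same 200 bases. AP-1 letters were in 14 lectin regions (29.8%, against 16.1% of all regions), RUNX letters in 7 (14.9%, against 10.7%) and PU.1 letters in 3 (6.38%, against 8.28%). Among the shared lectin regions whose summit reads rose (below), 4 of 10 held the C/EBP letters and 1 of 10 the AP-1 letters, while among the other 13 shared regions 2 held the C/EBP letters and 8 the AP-1 letters. Over all shared regions 14.5% held the C/EBP letters and 16.9% the AP-1 letters, and over all regions that rose in summit reads 26.7% and 19.2%. These are matches of letters, were not tested, and say nothing on whether a factor was bound.

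To ask whether MMF changed the accessibility of the receptor genes, the read pileup at each peak summit was compared. Summit reads are given per unit of the library's genome-wide background, so that depth cancels. With MMF, 18 of the 23 shared lectin regions had a difference above the median of all shared regions. Summit reads passed limma's test (Benjamini-Hochberg adjusted p under 0.05 over all 41182 shared regions) upward in 10 of 23 regions and downward in 0 by background scaling. Each of the 8 genes was the nearest of the 8 to at least 1 of these regions. The share of all coding genes with such a region was not counted, so this is not a result about the family. Over all shared regions, 21.7% passed upward and 3.09% downward, and 43.5% of the lectin regions passed upward. The shares over all shared regions include promoters, which moved otherwise. Every MMF sample lay above every control in 6.1% of 11698 genes with a promoter peak in all 6 lists, and below in 17.8%. Over all shared regions these shares were 29.1% and 7.67%. The lectin share was not compared within promoters and other regions separately. The median difference (MMF minus control, log2) was 0.44 over the lectin regions and 0.16 over all shared regions. The scaling mattered to the level: dividing instead by the median of the shared regions lowered all differences by 0.35, the median of all regions became -0.19 and that of the lectin regions 0.09. The mean difference was upward in 20 of the 23 lectin regions by background scaling and in 13 of 23 by median scaling, and the same number, 18, lay above the median of all regions under either. Median scaling left 2 regions called higher, upstream of Clec4a2 and Clec4n, and 1 called lower, upstream of Clec10a, and genome-wide it called 3609 regions higher and 10422 lower against 8955 and 1271 by background scaling. In these bulk libraries, a changed share of cells with open sites and changed accessibility per cell cannot be told apart.

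**Figure D1:**
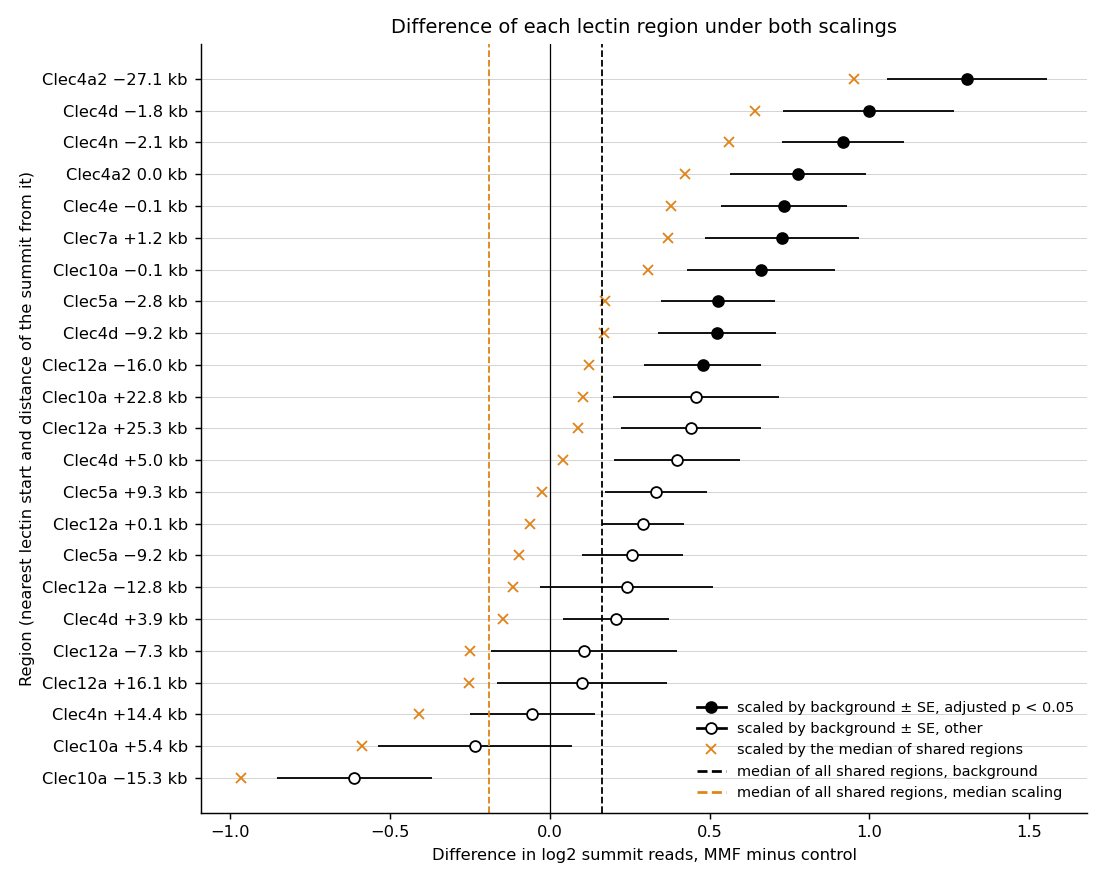
Difference in log2 summit reads (MMF minus control) for the 23 lectin regions with a peak in all 6 lists, as points with the limma standard error scaled by background (filled where the adjusted p was under 0.05) and as crosses scaled by the median of shared regions. Dashed lines mark the median over all 41182 shared regions under each scaling, 0.16 and -0.19, and 18 of 23 regions lie to the right of their line.

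By the percentile rank of a peak's fold enrichment within its own list, limma called 1 of 23 lectin regions higher and 0 lower, against 5.83% higher and 0.185% lower over all shared regions. An unadjusted limma p under 0.05, in either direction, was found for 9 of 23 by rank and 15 of 23 by summit reads. Both counts include the Clec10a region 15.3 kb upstream, which fell. The share of all shared regions with such a p was not counted, here or in the next sentence. When ranks were taken again among the shared regions alone, an alternative chosen after seeing the data, 0 of 23 were called by limma and 6 had an unadjusted p under 0.05. Of all shared regions, 594 were then called higher and 175 lower. In summit reads, every MMF sample lay above every control sample in 11 of 23 regions and below in 1, with 29.1% and 7.67% of all shared regions doing so. By background scaling the 11 were the 9 called regions other than the promoter of Clec10a, the exonic Clec4d region and the promoter of Clec12a.

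**Figure D2:**
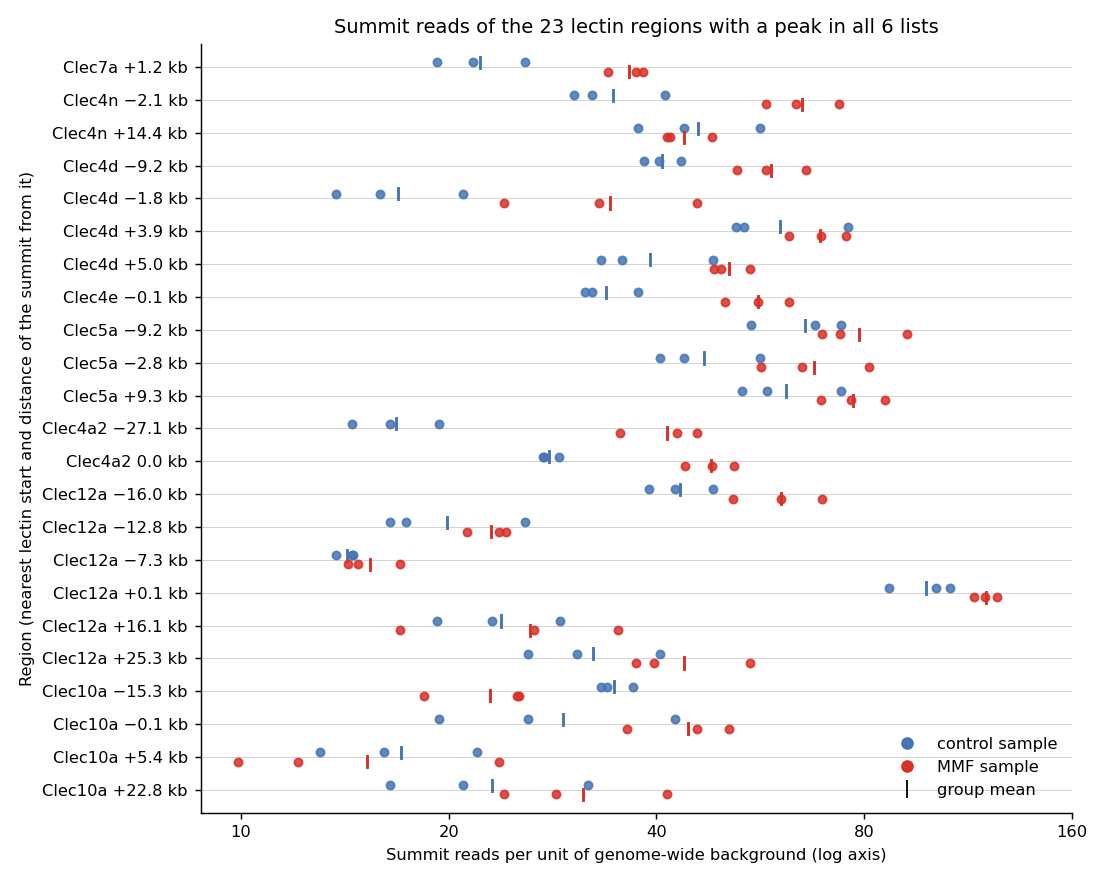
Summit reads per unit of genome-wide background (log axis) for each shared lectin region, with 1 point per sample, blue for control and red for MMF, and a vertical bar for each group mean. In the Clec4a2 region 27.1 kb upstream the MMF samples sit between 35.4 and 45.8, all above the control samples at 14.5 to 19.3.

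Clec7a encodes Dectin-1, the receptor for fungal beta-glucan, which carries an ITAM-like motif in its own tail. Its window held a single shared region, chr6:129471232-129471786, in an intron 1.20 kb downstream of the start. The summit there held 19.2, 21.7 and 25.8 scaled reads in the controls and 37.4, 38.2 and 34.0 with MMF. All MMF samples were above all controls. The 1.64-fold difference in means was 0.73 ± 0.24 on the log2 scale (SE, n = 3 per group, limma adjusted p = 0.0187). Without control replicate 1, MMF replicate 1 or MMF replicate 2 the adjusted p was 0.0742, 0.0687 and 0.0704, and it was 0.23 by median scaling. Within 1000 bp of the start, a peak was found in 2 MMF lists and no control list. In MMF replicate 1 it was the edge of this intronic peak, and in MMF replicate 3 it was a separate promoter peak, chr6:129472749-129472915, with its summit 89 bp upstream of the start at 16.3 scaled reads and a rank of 33.8.

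Upstream of Clec7a by 4.17 kb, the intergenic region chr6:129476829-129477048 had a peak in all 3 MMF lists and in no control list (gained). Its summits were low, with 11, 10 and 10 reads, or 12.1, 14.2 and 14.8 scaled, and percentile ranks of 28.4, 34.1 and 35.9. The lowest summit called in a control list held 4 reads, so a missing call does not mean that reads were absent.

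Clec4n, Clec4d and Clec4e lie side by side and encode Dectin-2, MCL and Mincle, which bind fungal mannans and mycobacterial glycolipids and signal through the Fc receptor gamma chain. Together their windows held 7 shared regions, of which 4 rose in summit reads. All 4 lay upstream of the nearest of their starts or at it, and the 3 within gene bodies did not pass the test. The shares of regions at such positions that passed over all shared regions were not counted.

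Upstream of Clec4n by 2.14 kb, the region chr6:123227399-123228115 held 41.2, 30.4 and 32.2 scaled reads in the controls and 63.8, 73.7 and 57.6 with MMF. The groups were well apart, and the 1.88-fold difference was 0.92 ± 0.19 (log2, SE; limma adjusted p = 0.000134). It stayed called by median scaling, at 0.56 ± 0.19 (adjusted p = 0.0157), and with each sample left out in turn (largest adjusted p 0.00508). By rank, the same region moved from 82.1 ± 5.19 to 95.4 ± 3.46 (SD, n = 3), with a limma adjusted p of 0.0733. No peak lay within 1000 bp of the Clec4n start in any list. Inside the gene, 14.4 kb from the start, the intronic region held 43.9, 37.6 and 56.4 scaled reads in the controls and 41.8, 48.2 and 41.4 with MMF, and the groups overlapped.

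Clec4d had no peak within 1000 bp of its start either. The region 1.80 kb upstream, chr6:123259950-123260527, was among the weaker ones, with 13.7, 15.9 and 20.96 scaled reads in the controls and 33.0, 24.1 and 45.8 with MMF. Every MMF sample was higher than the controls, though they spread widely among themselves. The 2.03-fold difference was 1.00 ± 0.27 (log2, SE; limma adjusted p = 0.00307), and the adjusted p was 0.0663 without MMF replicate 3, the highest sample, and 0.0526 by median scaling. Between Clec4n and Clec4d, 9.16 kb upstream of the latter, chr6:123252736-123253166 was a stronger region with 38.4, 43.4 and 40.3 scaled reads in the controls and 65.99, 52.4 and 57.6 with MMF. The difference of 0.52 ± 0.19 (adjusted p = 0.0285) no longer passed without control replicate 1, control replicate 3, MMF replicate 1 or MMF replicate 3, at adjusted p 0.0794, 0.0538, 0.161 and 0.064.

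Within Clec4d, the intronic region 3.91 kb downstream held 52.1, 53.5 and 75.8 scaled reads in the controls and 69.3, 62.3 and 75.4 with MMF, a difference of 0.21 ± 0.17 that was -0.15 by median scaling. In the exonic region 4.97 kb downstream the values were 35.7, 33.3 and 48.4 against 48.4, 49.6 and 54.7, a difference of 0.40 ± 0.20 (adjusted p = 0.133).

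At the Clec4e promoter, the region chr6:123289462-123290401 had its summit 84 bp upstream of the start. Scaled reads were 31.6, 37.6 and 32.2 in the controls and 56.1, 62.3 and 50.3 with MMF, with no overlap. The 1.66-fold difference was 0.73 ± 0.20 (log2, SE; limma adjusted p = 0.00311) and stayed called with each sample left out (largest adjusted p 0.0324), while by median scaling it was 0.38 ± 0.19 (adjusted p = 0.124). In percentile rank the promoter peak stood at 75.0 ± 3.11 in the controls and 90.7 ± 0.654 with MMF (SD, n = 3; exact two-sided permutation p = 0.1, the smallest that 3 against 3 allows). A small peak 574 bp inside the gene was called in 2 control lists and no MMF list, at 11.6 and 11.3 scaled reads.

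Clec5a encodes MDL-1, a DAP12-coupled receptor bound by dengue virus. It had no peak within 1000 bp of a start, yet its window held the highest ranking region of any of the 8 genes, chr6:40594837-40595472, at 9.19 kb upstream. That region held 54.9, 68.0 and 74.2 scaled reads in the controls and 92.4, 69.4 and 73.9 with MMF, overlapping groups with a difference of 0.26 ± 0.16 by background scaling and -0.10 by median scaling. Closer to the start, at 2.75 kb upstream, chr6:40588400-40588869 held 43.9, 40.5 and 56.4 in the controls and 81.4, 56.7 and 65.0 with MMF. The lowest MMF sample was only just above the highest control. The difference was 0.53 ± 0.18 (limma adjusted p = 0.021), with adjusted p 0.0645, 0.104 and 0.197 without control replicate 1, control replicate 2 or MMF replicate 1, and 0.474 by median scaling.

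Clec4a2 encodes DCIR, an inhibitory receptor with an ITIM. Here the largest difference among the 23 shared lectin regions was found, in the intergenic region chr6:123095161-123095830, which lies 27.1 kb upstream of the nearest Clec4a2 start. Control samples held 16.5, 14.5 and 19.3 scaled reads and MMF samples 42.9, 35.4 and 45.8. The lowest MMF sample was far above the highest control. The 2.47-fold difference was 1.31 ± 0.25 (log2, SE; limma adjusted p = 3.72e-05), 0.95 ± 0.25 by median scaling (adjusted p = 0.00198), and the adjusted p was at most 0.00103 with any sample left out. It was also the lectin region called by rank, which moved from 53.4 ± 9.40 to 84.7 ± 5.89 (SD, n = 3; limma adjusted p = 0.0389). That call was lost with any of the 6 samples left out (adjusted p 0.0625 to 0.123), with the replicate number as a block (0.0532) and at equal list length (0.0974). None of the 4 motifs was found in its 200 bases.

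The Clec4a2 promoter, chr6:123122889-123123606, held 27.4, 28.9 and 27.4 scaled reads in the controls and 44.0, 48.2 and 51.7 with MMF. The controls were tightly grouped below all MMF samples. The 1.72-fold difference was 0.78 ± 0.21 (limma adjusted p = 0.00385), called with each sample left out (largest adjusted p 0.0291) and 0.42 ± 0.21 by median scaling (adjusted p = 0.113). Its rank was 75.2 ± 0.958 in the controls and 85.9 ± 5.41 with MMF (exact permutation p = 0.1). The other 4 regions in the window were called in 1 or 2 lists each.

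Clec12a encodes MICL, an inhibitory receptor for uric acid crystals that is a known surface marker of acute myeloid leukemia cells. Its promoter region, chr6:129349604-129350427, had by far the most reads of the 23 shared lectin regions, with 102, 86.8 and 106 scaled reads in the controls and 115, 125 and 120 with MMF. The groups did not overlap, but the difference was 0.29 ± 0.13 (limma adjusted p = 0.0845) and turned to -0.06 by median scaling. The window was also the fullest, with 18 regions, 6 of them shared. Of these, the region 15967 bp upstream at chr6:129333844-129334141 and nearer to 4922502D21Rik, passed the test. It held 42.5, 39.0 and 48.4 scaled reads in the controls and 51.7, 69.4 and 60.6 with MMF, a difference of 0.48 ± 0.18 (adjusted p = 0.0437). Leaving out control replicate 1, control replicate 2, MMF replicate 2 or MMF replicate 3 gave adjusted p 0.0874, 0.139, 0.212 and 0.0993, and median scaling gave 0.626.

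Both other gained regions lay in Clec12a introns as the annotation draws the gene. At 5.42 kb upstream of the main start, chr6:129344405-129344728 had summits of 12, 11 and 11 reads in the MMF lists, or 13.2, 15.6 and 16.3 scaled. At 13.5 kb downstream, chr6:129363365-129363641 had 19, 20 and 9 reads, or 20.9, 28.3 and 13.3 scaled, and its rank ranged from 5.66 to 66.1. Apart from the value of 66.1, the gained peaks ranked from 5.66 to 35.9 in their lists, in the lower part.

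Clec10a encodes MGL1, a macrophage galactose-type lectin that is also found on dendritic cells. Its promoter region, chr11:70166175-70166901, held 42.5, 26.0 and 19.3 scaled reads in the controls and 36.3, 51.0 and 45.8 with MMF. Control replicate 1 reached above the lowest MMF sample, so the groups overlapped. The difference was 0.66 ± 0.23 (limma adjusted p = 0.026), with adjusted p 0.0696, 0.23, 0.14 and 0.0736 without control replicate 2, control replicate 3, MMF replicate 2 or MMF replicate 3, and 0.31 by median scaling. The intergenic region 15.3 kb upstream, chr11:70151081-70151477, went the other way, with 37.0, 33.3 and 33.9 scaled reads in the controls and 25.3, 18.4 and 25.1 with MMF. All MMF samples were below all controls, at a difference of -0.61 ± 0.24 (adjusted p = 0.0538), which was -0.97 ± 0.24 by median scaling (adjusted p = 0.00126).

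Set side by side by the highest ranking region of each window, the mean percentile rank over the 6 samples was 95.7 for Clec5a, 92.2 for Clec4n and Clec4d (the same region), 92.1 for Clec12a, 84.0 for Clec4e (a region inside Clec4d), 80.5 for Clec4a2, 80.1 for Clec10a and 73.8 for Clec7a. In the controls alone these stood at 93.8 ± 2.74, 87.9 ± 1.33, 89.9 ± 4.96, 83.3 ± 3.46, 75.2 ± 0.958, 71.2 ± 15.7 and 63.6 ± 5.09 (SD, n = 3). Among neighbours in this order, Clec4d and Clec12a, Clec4a2 and Clec10a, and Clec10a and Clec7a, differed by less than their spread. Shared lectin regions had a median rank of 80.1 and all shared regions 67.8.

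Considering promoters, a peak within 1000 bp of a start was present in all 6 lists at Clec4e, Clec4a2, Clec12a and Clec10a. In scaled summit reads every MMF sample lay above every control at 3 of these 4, and below at 0, by background scaling, with Clec12a turning to -0.066 by median scaling (log2 ratio of means). Among all 11698 genes with a promoter peak in all 6 lists, 6.1% had every MMF sample above and 17.8% below. The exact permutation p was 0.1 for Clec4e, Clec4a2 and Clec12a and 0.2 for Clec10a.

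**Figure D3:**
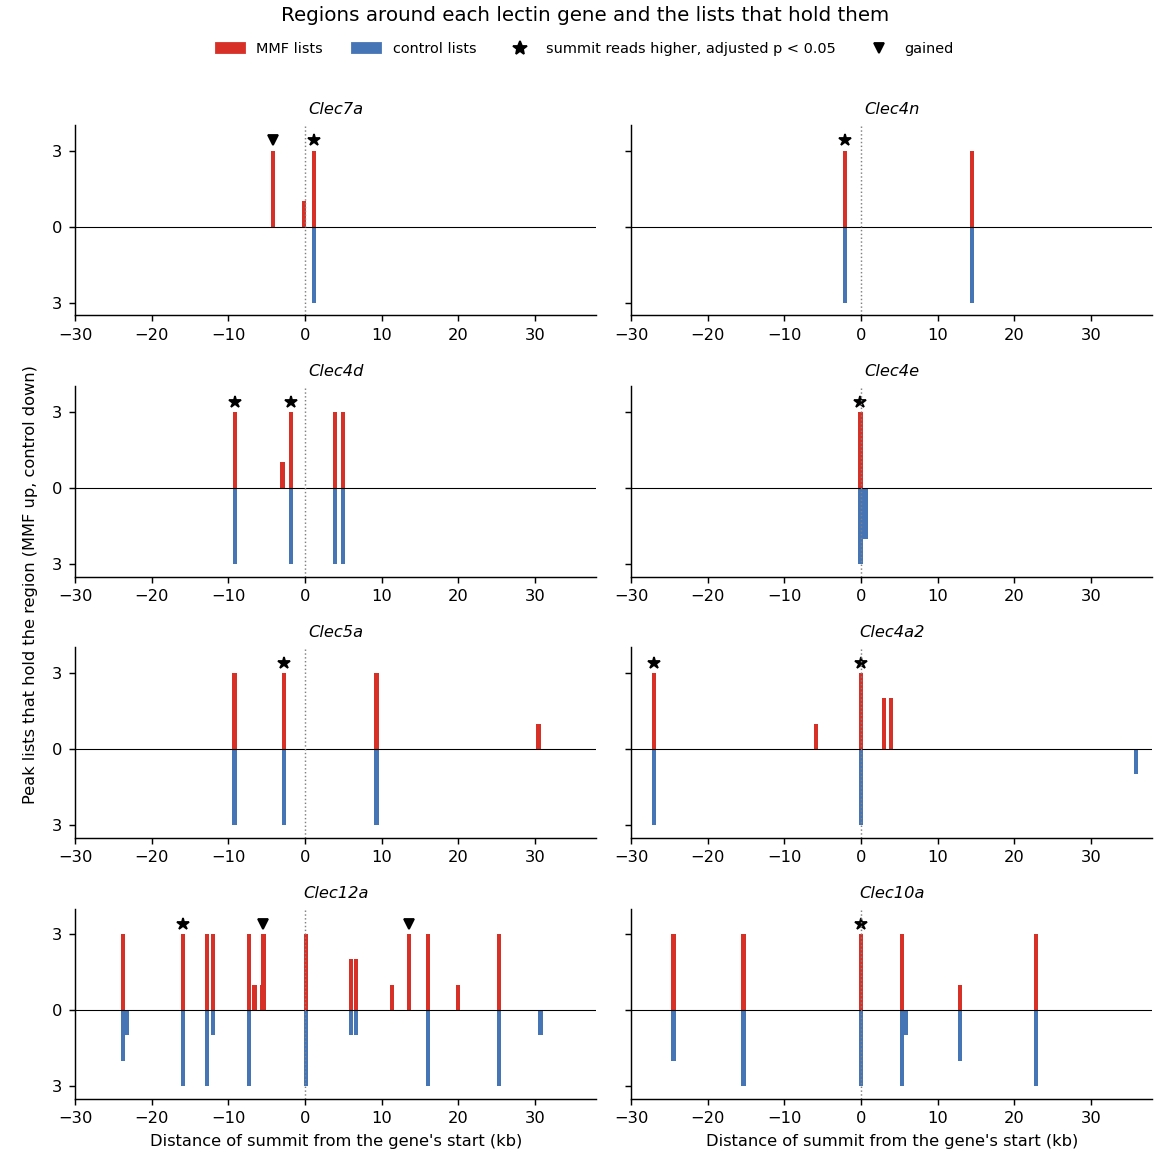
Regions given to their nearest lectin start, by the distance of the summit from that start along the gene (kb, negative upstream), with bars for the number of MMF lists (up) and control lists (down) that hold each. Stars mark the 10 regions whose summit reads rose and triangles the 3 gained regions, and 9 of the 10 stars lie upstream of the start. These include the promoter summits of Clec4a2, Clec4e and Clec10a, at 36, 84 and 54 bp upstream. The share of upstream summits over all shared regions is not given here.

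By presence of a peak, 23 of the 47 regions were shared, 3 were gained and 0 were lost (a peak in all control lists and no MMF list). The gained share was 6.38% of the lectin regions, against 6% of all regions and 5.64% of the 89688 regions within 20 kb of a coding gene, and 0.182% of all regions were lost. The lectin share was thus close to the background. Of the other 21 regions, 10 were found in 1 or 2 MMF lists only, 5 in 1 or 2 control lists only and 6 in some lists of both groups. With all lists cut to the 58496 peaks of lowest p, 0 of 39 lectin regions were gained and 1 was lost, beside 2020 gained and 1175 lost among all 85883 regions.

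The merged windows held 29, 26 and 31 peaks in the control lists and 37, 35 and 34 in the MMF lists. All MMF lists were above all controls, at 28.7 ± 2.52 against 35.3 ± 1.53 (SD, n = 3; exact two-sided permutation p = 0.1), a ratio of 1.23 where the lists themselves were longer by a ratio of 1.37. At equal list length the difference was -0.333 peaks. Per gene, the Clec12a window went from 9, 7 and 9 to 14, 13 and 12 peaks and the Clec7a window from 1 in each control to 2, 2 and 3, so 2 of 8 genes had every MMF list above every control. Among 18831 coding genes with a peak in their window, 26.4% did. Clec4d and Clec4e had 7.33 and 4.33 peaks on average in the controls and 6.67 and 3.33 with MMF.

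**Figure D4:**
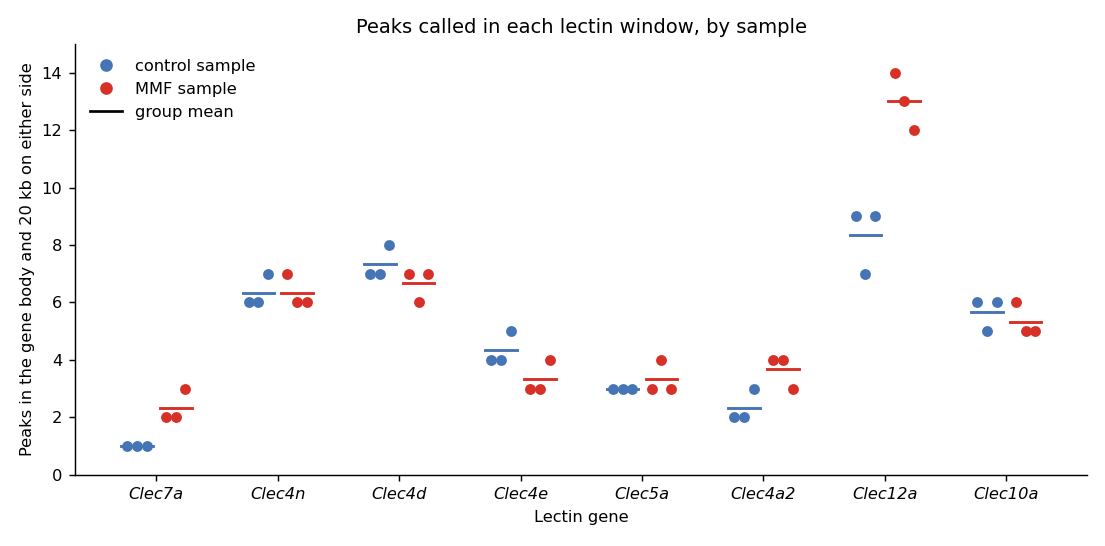
Peaks called in the body of each lectin gene and the 20 kb on either side, with 1 point per sample (blue control, red MMF) and a line for the group mean. Clec12a holds 7 to 9 peaks in the controls and 12 to 14 with MMF, while the points of Clec4n, Clec4d, Clec4e and Clec10a overlap between groups.

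The signalling partners were open in both groups. Each of the 16 was peaked at its promoter throughout the 6 lists. Of these promoter regions, 1 passed the limma test on summit reads upward and 0 downward, with a median difference of 0.02. The test took the peak of highest fold enrichment in each merged region, which can differ from the promoter peak. Of all shared regions, promoters or not, 21.7% and 3.09% passed, and the share over promoters alone is not given here. The called gene was Inpp5d, which encodes the inositol phosphatase SHIP1, at 30.8 ± 3.35 scaled reads in the controls and 49.1 ± 14.5 with MMF (0.63 ± 0.21, adjusted p = 0.0214). Groups were apart without a call at Card9, the adaptor below Syk, with 67.3 ± 6.61 against 81.0 ± 5.12, and at Ptpn6, with 77.0 ± 1.91 against 64.0 ± 7.21 (adjusted p = 0.197 and 0.201). Counting Inpp5d, every MMF sample lay above every control at 2 of the 16 and below at 1. Over the 11698 genes with a promoter peak in all 6 lists, the shares were 6.1% and 17.8%. Fcer1g and Tyrobp, the adaptor genes, had overlapping groups.

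Of the 22 other C-type lectin genes, 12 had no promoter peak in any list and 7 had one in all 6, of which 4 passed the limma test upward and 0 downward (21.7% and 3.09% of all shared regions) and 4 had every MMF sample above every control (6.1% of genes with a promoter peak in all 6 lists). Among the genes whose windows overlap those of a receptor above, Olr1, which encodes the oxidized LDL receptor LOX-1, went from 13.2 ± 2.72 to 34.1 ± 1.45 scaled reads (1.38 ± 0.27, adjusted p = 5.04e-05). Mgl2, the close relative of Clec10a, went from 15.1 ± 3.76 to 34.1 ± 5.27 at its promoter peak. For limma the peak of highest fold enrichment in the merged region was used, which was not in every sample the promoter peak. The limma difference for that Mgl2 region was 0.97 ± 0.28 (adjusted p = 0.00602). Clec4b1, Clec4b2, Clec1a, Clec1b, Clec9a and Clec12b had no promoter peak. The other called genes, named after their values were seen, were Clec4a1 (20.6 ± 9.28 to 63.8 ± 5.59, difference 1.73 ± 0.23) and Clec4a3 (14.8 ± 2.12 to 32.3 ± 6.49, difference 1.12 ± 0.27), both relatives of Clec4a2 (adjusted p = 2.18e-08 and 0.000943). Reads of such close relatives may map to more than 1 of them, and how such reads were treated was not given in the sources used here.

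The marker lists moved in several directions. Beside the limma calls below, 21.7% of all shared regions, promoters or not, passed the test upward and 3.09% downward. The share over promoters alone is not given here. Summed over the 5 neutrophil markers, promoter summit reads (scaled, a list without a peak counted as 0) were 61.7 to 70.9 in the controls and 120 to 161 with MMF, with 2 of 5 genes peaked in all 6 lists, of which Camp was called higher (1.59 ± 0.23, limma adjusted p = 1.82e-07) and Mmp8 was not (adjusted p = 0.132). Ltf and Cxcr2 had no peak in any control list and so entered those sums as 0. Over the 6 macrophage markers the sums were 33.9 to 68.6 and 79.2 to 93.5, with 0 of 2 tested genes called and C1qa, Marco and Vsig4 without a peak in any list. Csf1r had a peak in 2 control lists and 3 MMF lists, and its missing peak entered as 0. The groups overlapped at the tested genes, Adgre1 (20.1 ± 4.91 against 28.9 ± 6.20) and Mertk (21.5 ± 10.9 against 21.5 ± 2.26). The 10 progenitor and L-GMP markers summed to 274 to 319 in the controls and 354 to 398 with MMF. Fcgr3 and Elane had a peak in 1 control list and 3 MMF lists, Fcgr2b in 2 and 3, and Cd34 in 3 and 2. Each missing peak entered these sums as 0. Of 4 tested, Ctsg was called higher (0.52 ± 0.18, limma adjusted p = 0.0215) and Meis1 lower (-0.40 ± 0.14, adjusted p = 0.0265). At Hoxa9 every MMF sample lay below every control without a call (65.7 ± 3.31 against 51.3 ± 2.74, adjusted p = 0.116). Among the 4, groups were apart upward at 1 and downward at 2, against 6.1% and 17.8% of genes with a promoter peak in all 6 lists. Dendritic cell markers summed to 94.7 to 121 and 72.6 to 99.0, with 0 of 2 tested genes called and Xcr1 and Ccr7 at 0. The 3 NK cell markers summed to 0 to 12.3 and 10.999 to 25.5, with Ncr1 at 0. The 4 erythroid markers summed to 122 to 150 and 130 to 136, with Slc4a1 at 0. Most of the erythroid sums came from Klf1, at 117.7 ± 13.5 in the controls and 107.7 ± 5.29 with MMF, with overlapping groups. The part of the cells behind these markers in the lectin results was not tested.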

How the data were processed

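ATAC-seq peak lists of 3 control and 3 MMF samples were used, each called on its own. Per the labels' processing notes the authors used FastQC, Trim Galore, Bowtie2 and MACS2 on mm10, with no versions given. The deposited columns were the fold enrichment at the summit (a ratio to background), −log10 of the p-value and of the q-value, and a score that was 10 times the −log10 p-value, rounded down. Peaks on chromosomes 1 to 19, X and Y were kept (0.225 to 0.270% were left out). Summit reads were solved from the deposited fold enrichment and p-value, came out whole (within 0.05 reads) for at least 99.998% of peaks, and were divided by the background of each library. The reads themselves were not used here, so total depth is unknown.

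Peaks overlapping by 1 bp or more were merged into regions. Shared regions were tested with limma 3.58.1 (R 4.3.3), on normal scores of ranks and with trend on log2 scaled reads, over all shared regions, and single values with exact two-sided permutation tests (scipy 1.17.1). Scripts were tested on simulated data. Genes were from GENCODE M21, of which Clec7a is annotated as a polymorphic pseudogene, and sequence was from GRCm38.p6. The members and lists were chosen with earlier results of these data known. Text names each gene's promoter region, highest ranking region, gained or lost regions and called regions. No column of the authors' own comparisons was present.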

Additional observations from a re-analysis of the deposited data

How the results depend on the processing

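The 3 gained lectin regions became 0 at equal list length and 7 within 50 kb, and the 0 lost regions 1 at equal length; with 1 sample left out they were 3 to 5 and 0 to 1. Lectin regions called by rank (1) became 0 at equal length, with the replicate block and when ranked among shared regions (chosen after seeing the data), 4 when ranked by −log10 p (3922 higher and 104 lower of all 41182 shared regions), and 0 to 0 with 1 sample left out, where leaving out any MMF sample left 0 calls genome-wide. Of the 10 called higher by summit reads, 2 stayed called by median scaling, which also called 1 other region lower. With 1 sample left out, 6 to 8 regions were called, and 4 of the 10 stayed called in all 6 leave-outs. The count stayed 10 with the replicate block and with log2 of scaled reads plus 1. The median promoter rank difference was 13.2, 9.14 at equal length and 10.4 to 14.5 with 1 sample left out. The median promoter log2 ratio was 0.67, 0.31 by median scaling and 0.54 to 0.73 with 1 sample left out. The difference in window peaks was 6.67, -0.333 at equal length, 18 within 50 kb and 5.33 to 7.83 with 1 sample left out. Median scaling turned the sign of 7 of 23 reads differences, none of them called, including those of Clec5a 9.19 kb upstream (-0.10), Clec4d 3.91 kb downstream (-0.15), the Clec12a promoter (-0.062) and its promoter ratio (-0.066). The rank difference of Clec4d 3.91 kb downstream (0.06) was -0.16 at equal length, -0.17 when ranked among shared regions and -0.035 (without MMF replicate 3) to 0.15 with 1 sample left out. The cause was not tested. Replicate numbers did not pair the samples (correlation of same-numbered deviations -0.00244 to 0.00401, other numbers -0.00556 to 0.00673), and the replicate block moved genome-wide rank calls from 2402 and 76 to 678 and 13. Summits held a median of 14 to 19 reads.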
